A study of Mus musculus with 4 samples.

Results

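Kinesins are motor proteins that bind microtubules and use ATP to walk along them or to take their ends apart. The genes described here were the rows of a mouse array table that carried exactly 1 gene symbol of the form Kif followed by a number and, where present, a letter. There were 34 such genes among 30142 genes with 1 symbol, each measured by 1 row. A further 4 rows that paired a kinesin symbol with another gene were left out. By textbook role, 12 of the 34 were mitotic kinesins, 11 were transport kinesins, 5 were kinesins of the cilium or centriole and 6 had other or mixed roles.

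RNA came from outgrowths of mouse blastocysts, which form when a blastocyst settles on the dish, its trophoblast flattens outward and the inner cell mass grows in the middle. Blastocysts of 3.5 days post coitum came from matings between Tip110+/- mice and were each grown for 4 to 6 days in stem cell medium that contained knockout serum replacement, with no other treatment. The 2 groups were wild-type and Tip110-/-, with 2 arrays each. In both groups replicate 1 pooled 3 outgrowths and replicate 2 was 1 outgrowth. Tip110 is the protein of the gene Sart3, a factor that helps the U4 and U6 snRNAs of the spliceosome to pair again. The labels do not describe the mutant allele.

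The mitotic kinesins build and move the spindle, align chromosomes and complete the final cut between daughter cells. Their transcripts are made mostly in late S, G2 and M phase, so in bulk RNA they often follow how many cells of a tissue are dividing. The transport kinesins carry vesicles, mitochondria and ciliary cargo in dividing and resting cells alike. Trophoblast giant cells, a main cell type of an outgrowth, copy their DNA without dividing.

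Values below are log2 signals, unchanged from the deposited table, with the pool named before the single outgrowth. The median gene stood at 4.21 and 4.22 in wild-type, against 4.45 and 4.32 in Tip110-/-. Rows of background probes had medians of 2.82 to 3.05. Positive control rows had medians of 9.80, 9.66, 8.69 and 9.51 in the same order, so the Tip110-/- pool was the weakest on these rows. Each outgrowth gave 249 and 178 pg of RNA in wild-type, against 55 and 144 pg in Tip110-/-. Sart3 itself was at 4.94 and 5.98 in wild-type and at 4.28 and 4.54 in Tip110-/-, a difference of -1.05 ± 0.39 (SE; limma adjusted p = 0.386). That value came to -0.53 when wild-type replicate 2 was dropped and -1.57 when wild-type replicate 1 was. Across all genes the median difference was 0.15, and it was 0.03 among genes above the median gene. By the sample labels 144 pg of RNA was used on every array, so the amounts differ in yield. Both yield and positive control signal were lower in both Tip110-/- arrays, the latter by little in the single outgrowth. RNA yield and array quality therefore cannot be told apart from genotype in any difference below.

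Most mitotic kinesins gave lower signal in the Tip110-/- outgrowths, and the transport kinesins as a group did not. Kif11, Kif15 and Kif18b, at differences of -3.88, -2.78 and -2.69, were the farthest below wild-type. Among the transport kinesins the differences ran from -0.35 to 0.99, with Kif3a at the upper end. The median difference was -1.73 over the 12 mitotic kinesins and 0.15 over the 11 transport kinesins, against 0.15 over all genes. Among genes above the median gene it was -1.83 over 10 mitotic and 0.55 over 7 transport kinesins, against 0.03 over all such genes. No kinesin passed the threshold of 0.05 after Benjamini-Hochberg adjustment over all genes (limma, adjusted p from 0.318 to 0.881), as no gene of the table did, with 0% called. At an unadjusted p below 0.05, a nominal p in what follows, there were 7 kinesins, 6 mitotic ones lower and 1 transport one higher. By the same mark 3.67% of all genes were lower and 8.99% higher. No kinesin was at least 2-fold higher, where 4.53% of all genes were.

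**Figure D1:**
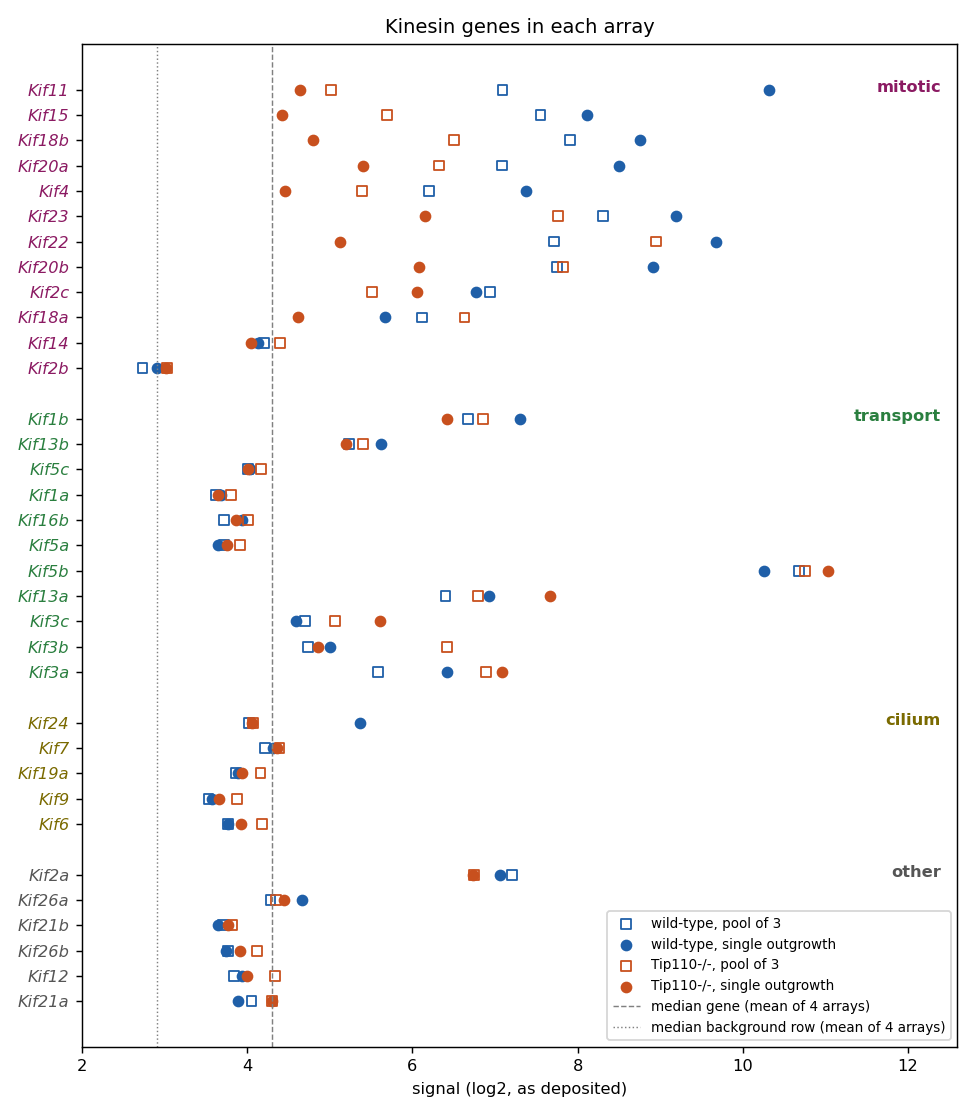
Signal (log2, x axis) of the 34 kinesin genes (y axis, by role) in the 4 arrays. Squares are pools of 3 outgrowths, circles single outgrowths, blue wild-type and orange Tip110-/-. In 7 of the 12 mitotic genes both Tip110-/- arrays lie left of both wild-type arrays, and many genes of the other roles lie near the dashed line of the median gene.

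The motors that push the spindle poles apart showed the widest gaps. Kif11, also called Eg5, is the kinesin-5 that slides antiparallel microtubules apart. Its signal was 7.09 and 10.32 in wild-type, against 5.01 and 4.64 in Tip110-/-. Both Tip110-/- arrays lay below both wild-type arrays, and the wild-type arrays were themselves 3.23 apart. The difference was -3.88 ± 1.08 (SE), or 14.8-fold lower, at a nominal p of 0.0156 (limma adjusted p = 0.343). It was -2.27 without wild-type replicate 2 and -5.50 without wild-type replicate 1. Kif15, a kinesin-12 that helps to keep the spindle bipolar, was at 7.55 and 8.11 in wild-type and at 5.69 and 4.42 in Tip110-/-. Its groups were also apart, with less spread in wild-type than for Kif11. The difference was -2.78 ± 0.55 (SE), 6.86-fold lower, with the smallest nominal p among the kinesins, 0.00376 (limma adjusted p = 0.318). When each array was left out in turn it stayed between -2.14 and -3.41.

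Motors that shape microtubule ends differed by less, and not all in the same way. Kif18b is a kinesin-8 that shortens the astral microtubules of the spindle. Its signal was 7.91 and 8.76 in wild-type, against 6.50 and 4.79 in Tip110-/-, with no overlap, and the difference was -2.69 ± 0.71 (SE; limma adjusted p = 0.339). Kif18a, the related kinesin-8 that damps chromosome movement at the metaphase plate, was at 6.11 and 5.67 in wild-type and at 6.63 and 4.61 in Tip110-/-. Here the Tip110-/- arrays lay on either side of wild-type, and the difference of -0.27 ± 0.71 (SE) was within the spread between arrays. Kif2c, or MCAK, takes microtubules apart at kinetochores and so corrects faulty attachments. It was at 6.94 and 6.77 in wild-type and at 5.51 and 6.05 in Tip110-/-, a difference of -1.08 ± 0.36 (SE; limma adjusted p = 0.369). It was the single mitotic kinesin with a higher value in the single Tip110-/- outgrowth than in the pool. Its relative Kif2b was at 2.73 to 3.03 in the 4 arrays, at the level of the background rows.

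The chromokinesins, which sit on chromosome arms, also had lower means in Tip110-/-. Kif4, which works on chromosome arms and in the central spindle, was at 6.20 and 7.37 in wild-type and at 5.39 and 4.46 in Tip110-/-. The groups did not overlap, and the difference was -1.87 ± 0.55 (SE; limma adjusted p = 0.345). Kif22, or Kid, which pushes chromosome arms away from the poles, was at 7.71 and 9.68 in wild-type and at 8.95 and 5.12 in Tip110-/-. The pooled Tip110-/- array lay between the wild-type arrays and only the single outgrowth was below them, at -3.57 from the wild-type mean of 8.70. The difference of -1.66 ± 1.42 (SE; limma adjusted p = 0.560) rested on that array and was 0.25 without it. Pseudogene rows of Kif4 and Kif22 were at 3.16 to 3.43 and at 3.53 to 4.24. Transcripts of near-identical copies can reach the same probes.

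The motors of cytokinesis, which work at the central spindle and the midbody, made up the rest of the mitotic group. Kif20a, or MKLP2, brings the chromosomal passenger complex with Aurkb to the central spindle. It was at 7.08 and 8.50 in wild-type and at 6.32 and 5.40 in Tip110-/-, a difference of -1.93 ± 0.64 (SE; limma adjusted p = 0.368) with no overlap, and -1.22 without wild-type replicate 2. Kif23, or MKLP1, is the motor of centralspindlin and was at 8.31 and 9.19 in wild-type and at 7.76 and 6.15 in Tip110-/-. The groups did not overlap, but the difference of -1.80 ± 0.72 (SE) did not reach a nominal p of 0.05 (0.0554; limma adjusted p = 0.396), and it was -0.99 without Tip110-/- replicate 2. Kif20b, or MPP1, was at 7.75 and 8.91 against 7.82 and 6.08, so the pooled Tip110-/- array lay just above the lower wild-type array. Its difference was -1.38 ± 0.78 (SE; limma adjusted p = 0.446), and it was -0.51 without Tip110-/- replicate 2, -0.80 without wild-type replicate 2 and -2.25 without Tip110-/- replicate 1. Kif14, a midbody motor, was at 4.04 to 4.40 in the 4 arrays, close to the median gene, with a difference of 0.06 ± 0.18 (SE).

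Counted over the group, 6 of 12 mitotic kinesins were lower at a nominal p below 0.05, none were higher and the other 6 did not pass. Over all genes 3.67% were lower by that mark, and 7.11% of genes above the median gene, where 10 of the 12 lie. In 7 of 12 both Tip110-/- arrays were below both wild-type arrays, against 12.9% of all genes and 23.1% of those above the median gene. A difference of at least 2-fold toward lower signal was seen in 9 of 12, against 5.56% and 11%. These shares are a description, since members of one group are not replicates. The count of 6 became 2 when wild-type replicate 2 or Tip110-/- replicate 2 was left out, 5 without wild-type replicate 1 and 8 without Tip110-/- replicate 1.

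**Figure D2:**
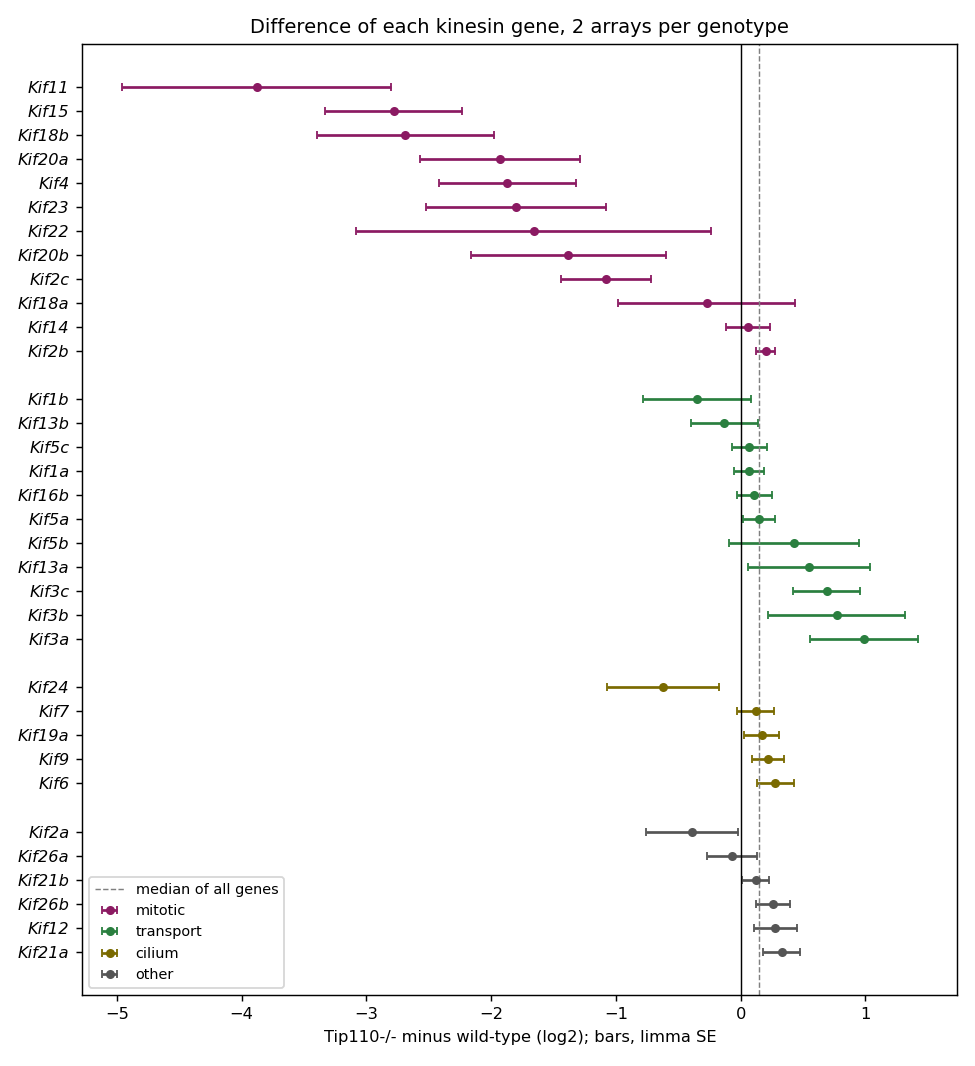
Tip110-/- minus wild-type (log2, x axis) for each of the 34 genes (y axis, colour by role). Points are limma estimates from 2 arrays per genotype and bars their SE; the dashed line is the median of all genes at 0.15. The mitotic genes run from -3.88 for Kif11 to 0.20 for Kif2b, and the transport genes from -0.35 for Kif1b to 0.99 for Kif3a.

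The 2 Tip110-/- arrays were not alike. Of the 12 mitotic kinesins, 11 were lower in the single Tip110-/- outgrowth than in the pool, whereas 9 of 12 were higher in the single wild-type outgrowth than in the wild-type pool. Over all 30142 genes these counts were 17639 and 15431. The single Tip110-/- outgrowth was also the lower one for 5 of 5 cilium, 5 of 6 other and 7 of 11 transport kinesins. That direction was therefore not particular to the mitotic group. Measured from each gene's wild-type mean, the median over the mitotic kinesins was -1.17 in the Tip110-/- pool and -2.36 in the single Tip110-/- outgrowth, and -0.43 and 0.43 in the wild-type pool and single outgrowth. The single Tip110-/- outgrowth minus the pool was -3.82 for Kif22 and -2.02 for Kif18a. With 1 array of each kind per genotype, the number of outgrowths pooled and the differences between embryos cannot be told apart.

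Transport kinesins were examined as the counterpart. Kif5b, the widely expressed heavy chain of conventional kinesin, gave the highest signal of the group, at 10.68 and 10.26 in wild-type and at 10.75 and 11.03 in Tip110-/-. The Tip110-/- values were above the wild-type ones by a small margin, and the difference was 0.43 ± 0.52 (SE; limma adjusted p = 0.675). Its neuronal relatives Kif5a and Kif5c were at 3.64 to 3.91 and at 4.01 to 4.17, below the median gene in every array. Kif1a, which carries synaptic vesicle precursors in axons, was at 3.62 to 3.80. None of these 3 neuronal motors differed by more than 0.15.

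The kinesin-2 heavy chains, which move cargo along cilia, held the largest positive differences. Kif3c, an alternative partner of Kif3a, was at 4.70 and 4.59 in wild-type and at 5.06 and 5.61 in Tip110-/-. The groups did not overlap, and the difference was 0.69 ± 0.27 (SE) at a nominal p of 0.0495 (limma adjusted p = 0.394). Kif3c has 1 row, so the mean of a gene's rows left its values unchanged, and the limma nominal p there was 0.0494. In the other settings with all arrays the limma nominal p was 0.0527 to 0.133. With 1 array left out the difference was 0.42 to 0.96. Kif3a was at 5.58 and 6.42 against 6.89 and 7.09, a difference of 0.99 ± 0.43 (SE; limma adjusted p = 0.400), also without overlap. Kif3b, the usual partner of Kif3a, was at 4.73 and 5.00 in wild-type and at 6.42 and 4.86 in Tip110-/-, so only the pooled Tip110-/- array was high.

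Kinesin-3 motors of endosomes and vesicles showed no common direction. Kif13a was at 6.40 and 6.93 against 6.79 and 7.66, and its relative Kif13b at 5.23 and 5.62 against 5.40 and 5.19. Kif1b, which carries mitochondria and synaptic vesicle precursors, was at 6.67 and 7.30 against 6.85 and 6.42. The groups overlapped in all 3, as they did for Kif16b at 3.72 to 4.01. Over the 11 transport kinesins 1 was higher at a nominal p below 0.05, 0 were lower and 10 did not pass, where 8.99% of all genes were higher. In 4 of 11 both Tip110-/- arrays were above both wild-type arrays, close to the 39.9% of all genes.

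The 2 groups were also set against each other within each array, which removes a shift that adds the same amount to every row of an array. The mean over the 12 mitotic kinesins minus the mean over the 11 transport kinesins was 1.26 and 1.95 in wild-type, against 0.26 and -0.84 in Tip110-/-. Both Tip110-/- arrays were lower than both wild-type arrays. The size of the offset in one array has no meaning of its own, since probes of different genes are not comparable, but its change between genotypes was -1.90, against a pooled SD of 0.65 between arrays of a genotype. When arrays were left out in turn the change was -1.34 to -2.45.

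**Figure D3:**
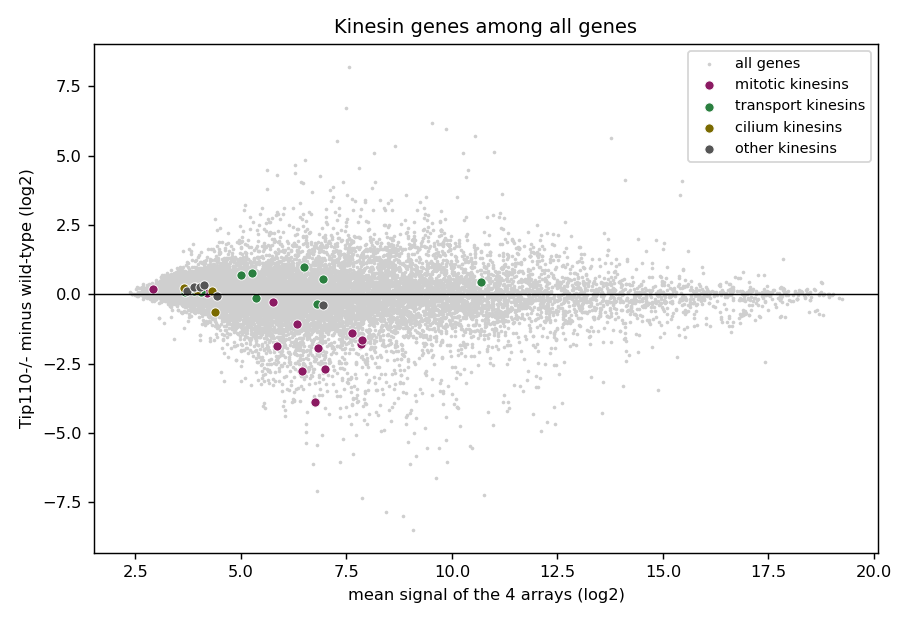
Tip110-/- minus wild-type (log2, y axis) against the mean signal of the 4 arrays (log2, x axis) for all 30142 genes in grey and the kinesins in colour by role. The mitotic kinesins with differences under -1 have mean signals well above the median gene of 4.33, and 20 of the 34 kinesins lie above it.

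Kinesins of the cilium and centriole mostly lay near the median gene. Kif24, a kinesin-13 of the mother centriole that holds back cilium formation, was at 4.02 and 5.36 in wild-type and at 4.07 and 4.06 in Tip110-/-. Its difference of -0.62 ± 0.45 (SE; limma adjusted p = 0.506) came from the single wild-type outgrowth and was 0.05 without it. Kif7, which works at the ciliary tip in Hedgehog signalling, and Kif6, Kif9 and Kif19a of motile cilia were at 3.53 to 4.39, with differences from 0.12 to 0.28. In these 4 genes both Tip110-/- arrays were above both wild-type arrays, as in 39.9% of all genes, against a median difference of 0.15 over all genes. Of the 5 genes 0 passed a nominal p of 0.05.

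Among the 6 kinesins of other roles, Kif2a, a microtubule depolymerase of neurons and of spindle poles, was the one with a clear signal. It was at 7.20 and 7.06 in wild-type and at 6.75 and 6.73 in Tip110-/-. The Tip110-/- arrays were both lower, but the difference of -0.39 ± 0.37 (SE; limma adjusted p = 0.595) was about as large as its error. Kif12, Kif21a, Kif21b, Kif26a and Kif26b were at 3.64 to 4.66 with differences from -0.07 to 0.33. Kif21a and Kif21b slow microtubule growth, and Kif26a and Kif26b are atypical kinesins. Of the 6 genes 0 passed a nominal p of 0.05.

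The promoters of the kinesins were compared for short elements known from cell cycle genes. Genes of G2 and M phase often carry a CHR, the letters TTTGAA near the start, which the DREAM and MYB-MuvB complexes bind, and a CCAAT box, which NF-Y binds. Windows of 250 bases before to 50 bases from the annotated start were taken from RefSeq (GRCm38.p6) for 28 of the 34 genes, 32 windows in all. Kif5a, Kif5b, Kif13b, Kif19a, Kif20a and Kif21b had none in the table used. The stretches shown are examples. They are of the mitotic genes Kif11, Kif15, Kif18b and Kif23, with a CHR close to the start, and of the transport gene Kif3c, with neither element. The mitotic genes Kif4, Kif20b and Kif22 also had a CHR within 50 bases of the start and are not shown. Of the transport genes, Kif1b, Kif3a and Kif3b had a CCAAT box and are not shown either. Capitals mark the CHR (TTTGAA, or TTCAAA when it is on the other strand) and the CCAAT box (CCAAT, or ATTGG on the other strand).
Kif11, chr19:37376322-37376381, plus strand, 60 bases before the start: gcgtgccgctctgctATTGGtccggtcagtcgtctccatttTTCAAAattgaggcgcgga
Kif15, chr9:122951021-122951080, plus strand, 60 bases before the start: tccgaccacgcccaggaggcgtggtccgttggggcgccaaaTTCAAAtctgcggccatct
Kif18b, chr11:102925115-102925164, minus strand, 40 bases before to 10 from the start: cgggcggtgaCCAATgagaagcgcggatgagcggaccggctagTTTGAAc
Kif23, chr9:61946790-61946839, minus strand, 40 bases before to 10 from the start: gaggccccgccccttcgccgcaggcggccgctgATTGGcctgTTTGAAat
Kif3c, chr12:3365072-3365131, plus strand, 60 bases before the start: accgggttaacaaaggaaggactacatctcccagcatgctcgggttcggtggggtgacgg

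The letters TTTGAA, on either strand, were found in 9 of 11 windows of mitotic kinesins. They were in 1 of 10 windows of transport kinesins, 0 of 5 of cilium kinesins and 1 of 6 of the other kinesins, and in 17.9% of all 32851 windows. In Kif11 and Kif15 the CHR lay at -19 to -14 from the start, in Kif22 at -17 to -12, in Kif23 at 3 to 8 and in Kif18b at 4 to 9. Within 50 bases of the start, a range chosen after the positions were seen, the letters were in 7 of 11 mitotic windows and in 4.94% of all windows. The mitotic windows without TTTGAA were those of Kif18a and Kif2b. Kif14 carried the letters at a difference of 0.06, and Kif20b and Kif22 carried them with overlapping groups. Kif1a was the transport gene with a match, in 1 of its 2 windows, whose start lies 19559 bases inside the annotated gene. Among the mitotic windows with TTTGAA, the starts of Kif2c and Kif14 lie 3852 and 1547 bases inside theirs.

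CCAAT was found in 7 of 11 mitotic windows and in 4 of 10 transport windows, 2 of them overlapping windows of Kif1b, against 37.4% of all windows. Both CHR and CCAAT letters were present in the windows of Kif4, Kif11, Kif14, Kif18b, Kif22 and Kif23. In Kif11 the CCAAT box lies at -45 to -41, upstream of the CHR. The CHR variant TTTAAA, a palindrome, was in 2 of 11 mitotic windows and 13.2% of all windows. The E2F letters GCGGGAA and GCGCGAA were in 0 of 11 mitotic windows each, against 4.6% and 1.59% of all windows. Any match is a match of letters and no evidence that a factor binds there.

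**Figure D4:**
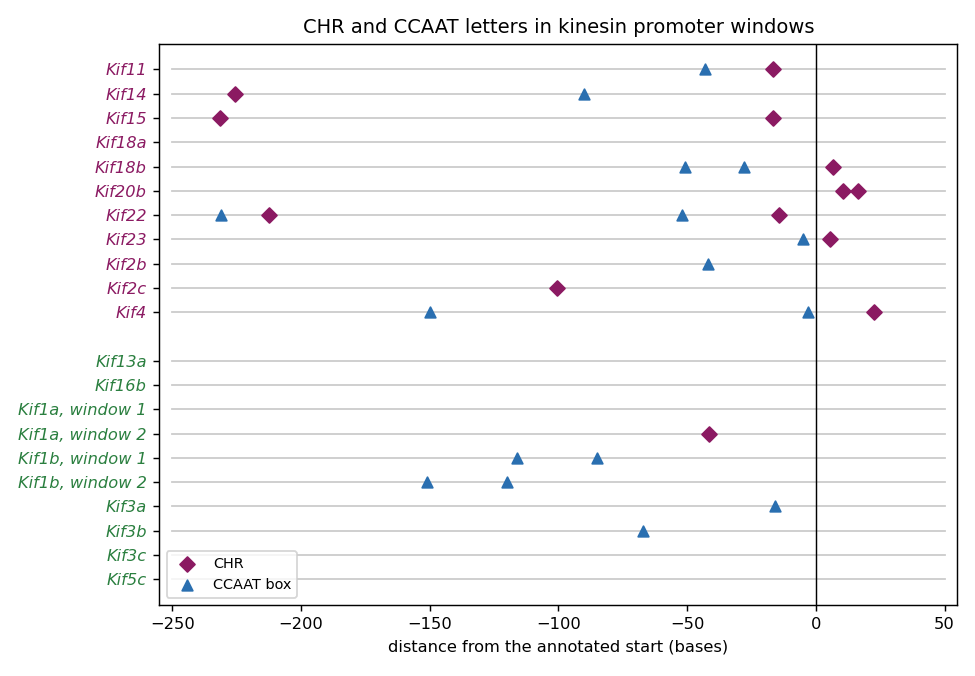
Distance from the annotated start (bases, x axis) of CHR letters (diamonds) and CCAAT letters (triangles), either strand, for the mitotic and transport kinesins with a promoter window (y axis; genes with 2 annotated starts have 2 windows). Diamonds stand in 9 of 11 mitotic windows, 7 of them within 50 bases of the start, and in 1 window of a transport gene, Kif1a.

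Genes that work with the mitotic kinesins were read from lists drawn up by function. Of 19 measured partners 13 were lower at a nominal p below 0.05, against 3.67% of all genes and 7.11% of those above the median gene, where all 19 lie. None were higher, the other 6 did not pass, and the median difference was -1.49. The 4 with the smallest p were Hmmr, a spindle protein, at -2.71 ± 0.37 (SE), Aurkb, the passenger kinase carried by Kif20a, at -2.78 ± 0.45, Ect2, a cytokinesis factor recruited through centralspindlin, at -2.41 ± 0.48, and Plk1, a mitotic kinase, at -4.06 ± 0.96. Their limma adjusted p ran from 0.287 to 0.334. Of the motors outside the Kif-number names 0 of 6 passed a nominal p of 0.05. Among them Cenpe, the kinetochore motor that brings chromosomes to the plate, was at 6.04 and 6.45 in wild-type and at 5.89 and 5.56 in Tip110-/-, a difference of -0.52 ± 0.33 (SE). Kifc1, a minus-end motor that focuses spindle poles, was at 7.21 and 7.31 against 7.36 and 6.92. Kifc1 and Kifc5b are close copies whose transcripts can reach the same probes.

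Light chains and cargo adaptors, the partners of the transport kinesins, had a median difference of 0.22 over 16 genes. Of these 3 were higher at a nominal p below 0.05 and 0 lower, where 8.99% of all genes were higher. Trak2, which links mitochondria to kinesin-1, was at 6.54 and 4.95 in wild-type and at 7.29 and 10.16 in Tip110-/-. Plekhm2, which links lysosomes to kinesin-1, was at 4.95 and 5.12 against 5.95 and 7.75, a difference of 1.81 ± 0.64 (SE; limma adjusted p = 0.378). Jakmip2, near background, differed by 0.26. The other microtubule motor, cytoplasmic dynein with dynactin, had a median difference of 0.14 over 23 genes. At a nominal p below 0.05, 1 was lower and 1 higher, where 3.67% of all genes were lower and 8.99% higher.

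Markers of dividing cells were read in the same way. Of 11 proliferation markers 6 were lower at a nominal p below 0.05 and 0 higher, with a median difference of -1.45, against 3.67% of all genes and 7.11% of those above the median gene. The list's mean signal was 10.21 and 10.49 in wild-type, against 8.78 and 7.71 in Tip110-/-, lowest in the single Tip110-/- outgrowth, the array where the mitotic kinesins were lowest. Mki67, at 11.11 and 12.42 against 8.96 and 4.97, differed by -4.80. Of those that did not pass, Ccna2 differed by -1.45, Mcm2 by -0.94, Ttk by -0.73, Pcna by -0.59 and Rrm2 by -0.02. In bulk RNA, fewer dividing cells and less RNA per dividing cell cannot be told apart.

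Markers of the cell types of an outgrowth were set beside these values. Epiblast markers had a mean signal of 9.79 and 10.13 in wild-type, against 7.23 and 5.81 in Tip110-/-, with 6 of 8 lower at a nominal p below 0.05 (3.67% of all genes, 7.11% of those above the median gene). Trophoblast markers, among them Krt8, Krt18 and Prl2c2 at 16.08 to 18.33, were at means of 11.20 and 11.07 in wild-type, against 11.40 and 12.08 in Tip110-/-, with 0 of 7 past that mark. Primitive endoderm markers were at 6.06, 5.24, 5.51 and 5.81, with 0 of 9 past it. Of the blood and immune markers Ptprc, Cd3e, Adgre1 and Itgam were at 3.30 to 4.11 in all arrays, while Cd68, a lysosomal protein, was at 10.39, 7.69, 10.09 and 10.42. The part of the lower proliferation and epiblast marker signal in the lower mitotic kinesin signal was not tested.

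**Figure D5:**
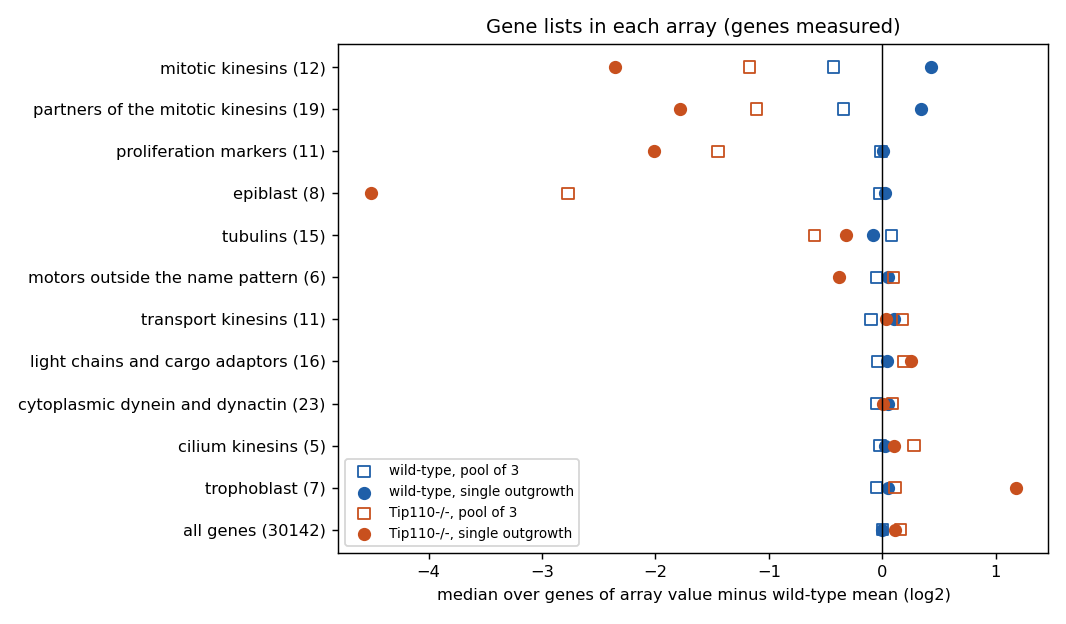
For each gene list (y axis, number of measured genes in brackets), the median over its genes of the array's value minus the gene's wild-type mean (log2, x axis). Squares are pools and circles single outgrowths, blue wild-type and orange Tip110-/-. The mitotic kinesins stand at -1.17 and -2.36 in the Tip110-/- pool and single outgrowth, the transport kinesins at 0.18 and 0.03, and the epiblast markers at -2.77 and -4.51.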

How the data were processed

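The authors deposited 1 table of log2 signal per transcript cluster for 4 arrays. That the scale is log2 was read from its range of values. The submitters' processing notes name 2 programs, Transcriptome Analysis Console and Affymetrix Expression Console. The way arrays were normalized or centred, and the build, is not given in the sources used here. The sample labels state 144 pg of RNA per array and the series' design text 100 pg.

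Of 72688 rows, 30604 had 1 gene symbol in the platform annotation and 2146 had several. Symbols were updated by Entrez ID, and the row with the highest mean was kept per gene, leaving 30142 genes. All were fitted with limma 3.58.1 in R 4.3.3 (lmFit, eBayes with an intensity trend, genotype as the only term, no filter on level), two-sided with Benjamini-Hochberg adjustment over all genes at 0.05. A run on simulated data checked only that the fit recovered planted differences on average, and did not check its p-values. Counts at a nominal (unadjusted) p below 0.05 are a description only, and that mark sets a difference against its error rather than measuring its size. Lists were described by counts and medians. Plots used matplotlib 3.10.9 and tables pandas 2.3.3 in Python 3.11.15.

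The kinesins, their roles, the lists and the promoter letters were chosen with earlier results of these data known. Every kinesin is accounted for: those at a nominal (unadjusted) p below 0.05 or a difference of at least 2-fold are given in every array, with each role's brightest member. From other lists, genes with the 4 smallest p could be named; further members are shown for their known role. Other settings were quantile normalization, centring, cyclic loess, a filter at the median gene, other variance priors, the mean of a gene's rows, a replicate term, other roles for Kif2a, Kif21a and Kif21b, and each array left out in turn. Nothing in the labels says that the samples came from separate litters, so p-values measure the spread between these samples. With 2 arrays per group, their number limits the precision.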

Additional observations from a re-analysis of the deposited data

How the results depend on the processing

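The median difference of the mitotic kinesins was -1.60 to -1.90 with other scalings, filters, priors or roles and -1.17 to -2.36 with 1 array left out. The change of mitotic minus transport kinesins was -1.79 to -2.36 and -1.34 to -2.45 in the same settings. The transport median, 0.15, was -0.06 with quantile normalization and -0.07 with cyclic loess, where all genes had medians of -0.01 and -0.02. It was 0.55 among genes above the median gene, where 7 members were tested and all genes had a median of 0.03. With 1 array left out it was 0.03 to 0.21, against 0.11 to 0.16 over all genes. The count of mitotic kinesins at a nominal p below 0.05, 6, was 5 to 7 in settings with all arrays and 2 to 8 with 1 left out. The gene behind the count of 1 transport kinesin was not always the same. It was Kif3c as reported, with the mean of a gene's rows and without Tip110-/- replicate 1, Kif3a with quantile normalization and without wild-type replicate 2, and Kif3b without Tip110-/- replicate 2. The count was 0 with arrays centred on the gene median, cyclic loess, genes above the median gene, no intensity trend, a robust prior or the replicate block, and 0 to 1 with 1 array left out. No kinesin passed the adjusted threshold in any of these settings (smallest limma adjusted p among those named 0.209).

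The replicate number as a block cannot change a difference, since each genotype has 1 array of each number, so the mitotic median stayed at -1.73. It changes the error only, and gave 5 mitotic and 0 transport kinesins at a nominal p below 0.05, and 0 past the adjusted threshold. Deviations of same-numbered arrays from their group means correlated at -0.09 over genes, so the numbers were not taken to pair the samples. A filter at the median gene, other variance priors, row means and the replicate term leave each kinesin's difference as it was. No sign could change in those settings. Of 156 differences of the named kinesins, with those settings counted, 2 changed sign. They were Kif22 at 0.25 without Tip110-/- replicate 2 and Kif24 at 0.05 without wild-type replicate 2. With 1 array left out they ran from -3.57 to 0.25 and from -1.30 to 0.05. For signals near the background rows, differences understate changes.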

Other observations

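Tubulins, the subunits of the track on which kinesins walk, did not move as one. Of 15 measured genes 4 were lower at a nominal p below 0.05 and 0 higher, with a median difference of -0.25. Over all genes 3.67% were lower by that mark, and 7.11% of those above the median gene. Tubb3, a beta-tubulin best known from neurons, was at 7.64 and 6.46 in wild-type and at 4.76 and 4.97 in Tip110-/- (limma adjusted p = 0.332). Tuba4a was at 8.96 and 8.83 against 6.89 and 4.88, while the abundant Tuba1c was at 17.78 and 17.52 against 17.05 and 16.41. The neuronal microtubule regulator Stmn2 was at 7.83 and 7.02 against 4.95 and 4.89 (limma adjusted p = 0.291). The other neuron markers Snap25, Syt1, Syp, Rbfox3 and Map2 were at 3.16 to 4.22 in all arrays, and Gap43 at 5.16 to 6.20 with overlapping groups.

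Within dynactin, the complex that couples dynein to cargo, Dctn2 and Actr1a differed in opposite directions. At a nominal p below 0.05 they were the 1 lower and the 1 higher of 23 dynein and dynactin genes. That mark was met by 3.67% of all genes toward lower and 8.99% toward higher signal. The count of 1 of 23 is near the first share and below the second, so it sets the list apart from all genes in neither direction. Dctn2, the dynamitin subunit, was at 10.10 and 10.18 in wild-type and at 6.76 and 8.07 in Tip110-/-, a difference of -2.73 ± 0.64 (SE; limma adjusted p = 0.334). Actr1a, the actin-related protein of its filament, was at 9.54 and 9.84 against 11.37 and 13.84, a difference of 2.91 ± 0.92 (SE; limma adjusted p = 0.358). Of the regulators of mitotic transcription 2 of 18 were lower at a nominal p below 0.05, a share near the 7.11% of genes above the median gene. They were Mybl2, the MYB protein that acts at CHR elements, at 11.66 and 12.65 against 9.56 and 6.64, and Rbl1 at 4.97 and 5.21 against 4.54 and 4.57.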
